A study of Mus musculus with 11 samples.

Results

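The 10 genes described here mark the granulocytes of allergic and antiparasitic responses and were picked by symbol from the merged count table of whole distal tibia. They were 4 eosinophil genes (Prg2, Epx, Il5ra and Ear2), the basophil gene Mcpt8, 3 genes shared by basophils and mast cells (Cpa3, Ms4a2 and Fcer1a) and the mast cell genes Tpsb2 and Cma1. All 10 were among the 22600 genes of that table, and 9 of them passed the filter on low counts, which left out Cma1. The filter was met by 16496 genes.

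Distal tibiae, cut at the junction of tibia and fibula and powdered whole, gave 1 library each from 4 Control mice and 7 BMAd-DTA mice. All mice were C57BL6/SJL, 24 weeks of age and fed ad libitum. All of them, controls included, carried Osterix-FLPo and FAC, an Adipoq-Cre allele that FLPo has to turn into the reading direction, and the labels give the control genotype as BMAd-WT. In BMAd-DTA mice Cre also removes the stop cassette before the diphtheria toxin A chain at the ROSA locus, so that the toxin is made where Osterix and Adipoq expression histories overlap, predominantly in marrow adipocytes. The model acts on few other stromal cells and its recombination is less complete in young mice, and none of the 10 genes is targeted by it. The labels give no sex. Xist held 13810 to 20260 counts in every library, and 4 genes of the Y chromosome together held 0 to 1. These values go against the legends of the study, which describe male mice for this model.

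Eosinophils, basophils and mast cells all descend from marrow progenitors. Eosinophils mature in the marrow under interleukin 5 and fill their granules with major basic protein, eosinophil peroxidase and ribonucleases. Basophils also leave the marrow mature, whereas mast cells finish their development in tissues such as connective tissue, where they store tryptase and chymase. Basophils and mast cells share the high-affinity IgE receptor, whose alpha chain binds the antibody and whose beta chain amplifies the signal. In bulk bone, fewer cells of a type and less RNA per cell cannot be told apart.

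GATA factors are known regulators of all 3 lineages, so the letters AGATAA and TGATAA, on both strands, were looked for in the 250 bases before each RefSeq gene start (GRCm38.p6). The promoter table held 8 of the 10 genes, with Prg2 and Tpsb2 missing, and 4 of these 8 carried the letters, which 16.6% of 32851 promoters do. The 4 were Il5ra and all 3 genes shared by basophils and mast cells, and the stretches around the matches are shown because they are a sequence feature that the choice of genes did not use. Each is written in the direction of its gene, which lies on the minus strand in all 4, with the match in capitals (TTATCT is AGATAA read on the opposite strand).
Il5ra, chr6:106749089-106749128, minus strand: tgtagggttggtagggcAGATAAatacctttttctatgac
Cpa3, chr3:20242205-20242244, minus strand: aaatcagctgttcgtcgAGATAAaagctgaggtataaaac
Ms4a2, chr19:11623734-11623773, minus strand: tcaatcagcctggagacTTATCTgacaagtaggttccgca
Fcer1a, chr1:173227299-173227338, minus strand: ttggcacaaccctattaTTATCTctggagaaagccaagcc
The match began 74 bases before the start of Il5ra, 46 before that of Cpa3, 37 before that of Ms4a2 and 92 before that of Fcer1a. Ms4a2 held 3 matches, beginning 224, 37 and 11 bases before the start, and the stretch shown is the nearest to the start with full flanks inside the window. The others held 1 each. The windows of Epx, Ear2, Mcpt8 and Cma1 held none. A match describes letters and not a bound site.

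Total counts per library ran from 16969529 to 18637663. Levels are given as CPM (counts scaled to a common library total) on library sizes scaled by the trimmed mean of M values (TMM), and, between genes, as CPM per kb of the longest annotated transcript. On the per-length scale the eosinophil granule genes stood far above the rest. Prg2, the gene of major basic protein, averaged 1677 ± 800 CPM per kb (SD, n = 11 mice) and was exceeded by 0.115% of the tested genes. Ear2, an eosinophil-associated ribonuclease, followed at 415 ± 212 and Epx, eosinophil peroxidase, at 306 ± 194 CPM per kb. Each of the 3 was exceeded by less than 1% of the tested genes.

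Mcpt8, a protease specific to mouse basophils, averaged 35.3 ± 16.0 CPM per kb and Cpa3, the carboxypeptidase of mast cell and basophil granules, 10.7 ± 4.56. The IgE receptor chains were lower, with 5.52 ± 2.06 CPM per kb for Fcer1a (alpha chain) and 4.22 ± 1.13 for Ms4a2 (beta chain). Il5ra, the interleukin 5 receptor alpha chain, stood at 1.55 ± 0.48 CPM per kb, the lowest of the eosinophil genes. Tpsb2, a mast cell tryptase, and Cma1, the mast cell chymase, came last at 0.546 ± 0.255 and 0.425 ± 0.197 CPM per kb, and 89% and 91.5% of the tested genes were higher. Neighbours in this order overlapped in their ranges over mice except at 2 steps, from Epx to Mcpt8 and from Ms4a2 to Il5ra. Of the tested genes 11.8% exceeded Mcpt8 and 36.8% exceeded Cpa3, while more than that exceeded Fcer1a (53.2%), Ms4a2 (59.3%) and Il5ra (76.3%).

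None of the 9 tested genes passed an adjusted p of 0.05 between the genotypes in the quasi-likelihood test of edgeR, with p-values adjusted by Benjamini-Hochberg over all 16496 genes. That test called 13 genes (0.0788%) in the whole table, 12 higher and 1 lower in BMAd-DTA. At an unadjusted p under 0.05 it again called 0 of the 9 and 2708 (16.4%) of all genes. Without Control 1, 3 members (Prg2, Il5ra and Ear2) had an unadjusted p under 0.05, as did 1784 of all genes, and none passed after adjustment. The filter was run anew without that mouse, and the share of all genes was not calculated. These 3 members varied together over the 11 mice (Pearson r from 0.807 to 0.988), so they are not 3 separate results. DESeq2 called 0 of the 8 members to which it gave an adjusted p (5.42% of all genes) and 0 of 10 unadjusted (13.7% of all genes). limma-voom called 0 of 9 adjusted (0.121%) and 0 of 9 unadjusted (16.4%). No member had groups that did not overlap, against 2.81% of all genes. In edgeR 7 members were higher and 2 lower in BMAd-DTA, and their log2 fold changes had a median of 0.18 beside 0.0018 over all genes.

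**Figure D1:**
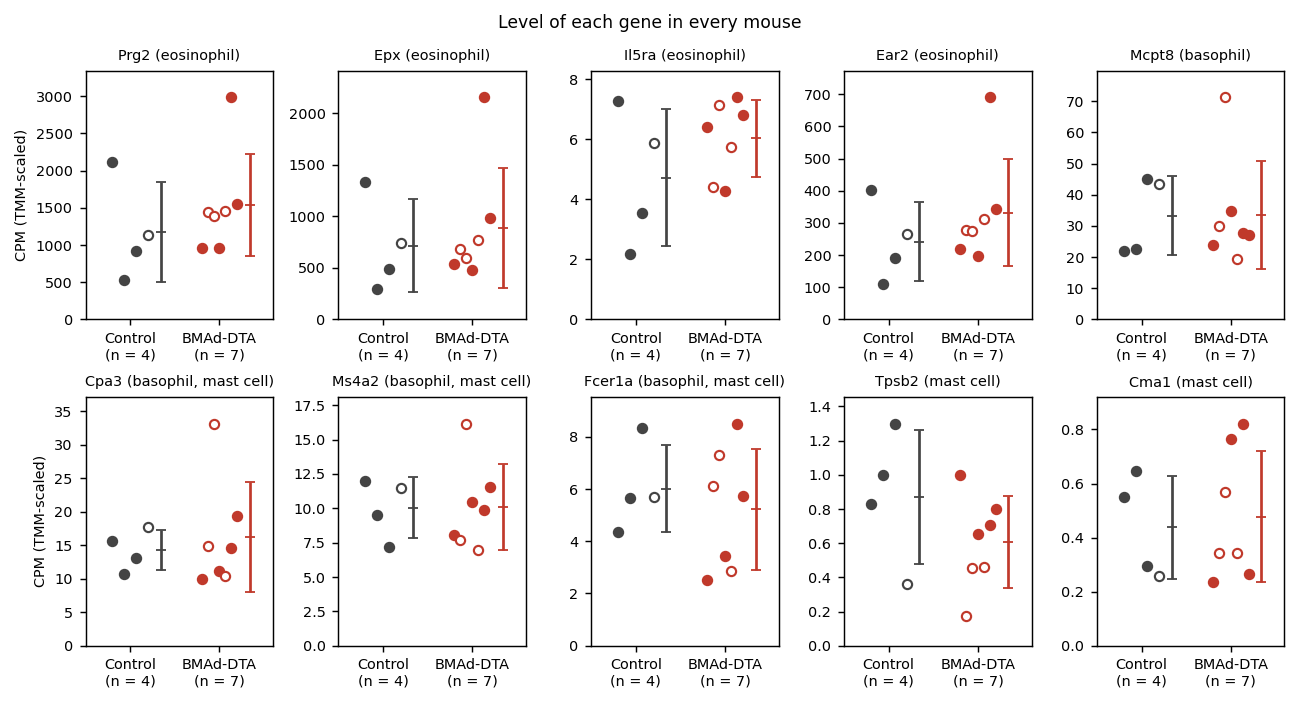
Level of each gene in every mouse, in CPM on TMM-scaled library sizes (vertical axes start at 0), for Control (grey, n = 4) and BMAd-DTA (red, n = 7). Open circles are the 4 libraries with low skeletal muscle genes, and bars give mean and SD. Control and BMAd-DTA overlap in every panel, BMAd-DTA 6 is the highest mouse for the 4 eosinophil genes, and BMAd-DTA 3 for Mcpt8, Cpa3 and Ms4a2.

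The eosinophil genes were higher on average in BMAd-DTA, but by less than the spread between mice. Prg2 (chr2:84980461-84983632) was at 2117, 535, 922 and 1136 CPM in Control 1 to 4, and from 956 over a median of 1447 to 2986 CPM in BMAd-DTA. One BMAd-DTA mouse, number 6, lay above every control, and Control 2 lay below all other mice. The log2 fold change of Prg2 was 0.38 ± 0.36 (SE), with a 95% interval from -0.39 to 1.15 and an adjusted p of 0.650 (edgeR). It was 0.83 without Control 1 and 0.14 without BMAd-DTA 6.

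Epx (chr11:87864000-87875536) held 1329, 297, 492 and 744 CPM in Control 1 to 4, and 477 to 2153 CPM with a median of 683 in BMAd-DTA. The order of the extreme mice was that of Prg2, with BMAd-DTA 6 and then Control 1 on top. Epx had a log2 fold change of 0.31 ± 0.44 (SE, 95% interval -0.65 to 1.27, edgeR adjusted p = 0.789), and it was 0.79 without Control 1 and turned to -0.08 without BMAd-DTA 6.

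Ear2 (chr14:44102654-44103534) was measured at 401, 110, 191 and 264 CPM in Control 1 to 4, and at 198 to 691 CPM with a median of 278 in BMAd-DTA. Here too only BMAd-DTA 6 lay above Control 1. Ear2 had a log2 fold change of 0.45 ± 0.36 (SE, edgeR adjusted p = 0.583), with a 95% interval from -0.33 to 1.23. It was 0.81 without Control 1 and 0.17 without BMAd-DTA 6. Of the 100-base windows of its transcript, 13.9% also occur in Ear-ps2 or Ear10, so part of its reads could be dropped or shared between these copies.

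Il5ra (chr6:106710357-106749037) had 7.27, 2.18, 3.55 and 5.86 CPM in Control 1 to 4, and 4.26 to 7.40 CPM with a median of 6.42 in BMAd-DTA. Controls 2 and 3 were lower than all BMAd-DTA mice, and Control 1 was level with the highest of them. For Il5ra the log2 fold change was 0.35 ± 0.28 (SE, 95% interval -0.26 to 0.96, edgeR adjusted p = 0.588), and it was 0.64 without Control 1 and 0.11 without Control 2. Its exact permutation p, 0.206 over the 330 splits of the mice (two-sided, smallest possible 0.00303), was the lowest of the 10 genes, and the highest was 0.939 for Ms4a2.

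The basophil gene Mcpt8 (chr14:56082166-56085273) showed a mean difference near 0 with a wide interval. It stood at 22.1, 22.7, 45.0 and 43.3 CPM in Control 1 to 4, and at 19.5 to 71.3 CPM with a median of 27.7 in BMAd-DTA. The highest mouse, BMAd-DTA 3, and the lowest, BMAd-DTA 5, had the same genotype. The log2 fold change was 0.0074 ± 0.32 (SE, 95% interval -0.69 to 0.71, edgeR adjusted p = 0.994). Without BMAd-DTA 3 it was -0.29, and its sign also changed under other settings.

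Cpa3 (chr3:20215620-20242181) held 15.6, 10.7, 13.1 and 17.7 CPM in Control 1 to 4, and 10.02 to 33.1 CPM with a median of 14.6 in BMAd-DTA. Of the BMAd-DTA mice, 2 lay above and 2 below every control. Cpa3 had a log2 fold change of 0.18 ± 0.30 (SE, 95% interval -0.46 to 0.83, edgeR adjusted p = 0.815), and -0.09 without BMAd-DTA 3.

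The IgE receptor chains also overlapped fully between genotypes. Ms4a2 (chr19:11615523-11623719) was at 12.0, 9.54, 7.15 and 11.5 CPM in Control 1 to 4, and at 7.002 to 16.2 CPM with a median of 9.86 in BMAd-DTA, again highest in BMAd-DTA 3. Its log2 fold change was 0.0077 ± 0.22 (SE, 95% interval -0.47 to 0.48, edgeR adjusted p = 0.991), the narrowest interval of the 9 genes, and -0.14 without BMAd-DTA 3. Fcer1a (chr1:173221284-173227214) was at 4.35, 5.65, 8.33 and 5.70 CPM in Control 1 to 4, and at 2.53 to 8.51 CPM with a median of 5.75 in BMAd-DTA. For Fcer1a, 3 BMAd-DTA mice lay below every control and 1 above. Its log2 fold change was -0.20 ± 0.32 (SE, 95% interval -0.90 to 0.49, edgeR adjusted p = 0.812). It was -0.0007 without Control 3 and -0.36 without BMAd-DTA 6.

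Tpsb2 (chr17:25366305-25369098) had 0.827, 1.001, 1.3 and 0.363 CPM in Control 1 to 4, and 0.172 to 1.002 CPM with a median of 0.656 in BMAd-DTA. Control 3 was highest and BMAd-DTA 2 lowest. The log2 fold change was -0.51 ± 0.42 (SE, 95% interval -1.43 to 0.41, edgeR adjusted p = 0.603), the most negative of the 9 genes. These values rest on 3 to 22 counts per library, where 3 counts carry an exact Poisson 95% interval of 0.619 to 8.77 and 22 counts one of 13.8 to 33.3, for counting error alone. Cma1 (chr14:55941451-55944675) had 0.551, 0.648, 0.295 and 0.259 CPM in Control 1 to 4 and 0.236 to 0.822 CPM with a median of 0.344 in BMAd-DTA, from 4 to 14 counts. It was not tested in edgeR, and without a filter its log2 fold change was 0.12 (edgeR adjusted p = 0.947). It passed the filter when some mice were left out, with 0.26 without Control 1, -0.01 without Control 3 and -0.06 without Control 4.

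**Figure D2:**
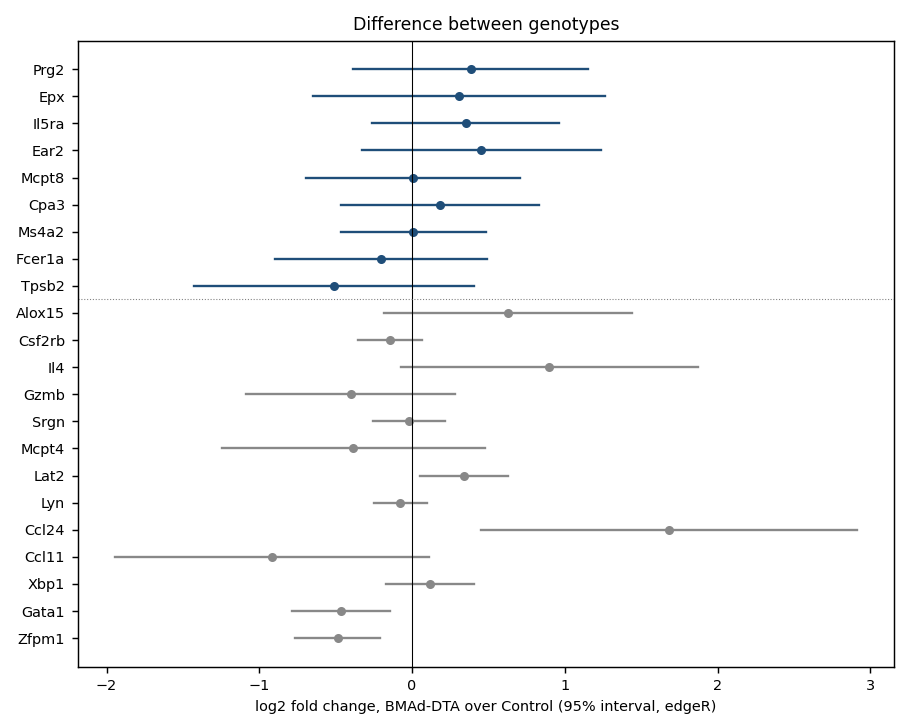
Log2 fold change of BMAd-DTA over Control with its 95% interval (edgeR), for the 9 tested members (blue, above the dotted line) and for genes of related lists (grey). The intervals of the 9 members all include 0, and those of Lat2, Ccl24, Gata1 and Zfpm1 lie to 1 side of it without passing the adjusted test.

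Mice differed widely in the eosinophil genes, also within a genotype, where Prg2 ran from 535 to 2117 CPM in Control and from 956 to 2986 in BMAd-DTA. Over all 11 mice Prg2 spanned 5.59-fold from its lowest to its highest mouse, Ear2 6.27-fold and Epx 7.24-fold, and Il5ra 3.39-fold. All 4 were lowest in Control 2 and highest in BMAd-DTA 6. Within genotypes, the SD of log2 CPM over mice was larger than that of Prg2 in 3.3% of 12973 tested genes (mean over all mice of 50 counts or more), larger than that of Ear2 in 3.2% and larger than that of Epx in 2.22%. For Il5ra the share was 5.46%. It was 4.12% for Mcpt8, 3.97% for Fcer1a, 5.06% for Cpa3 and 10.2% for Ms4a2, so a wide spread was not particular to the eosinophil genes. Summed, the 4 eosinophil genes ran from 944 CPM in Control 2 to 5837 CPM in BMAd-DTA 6, or 0.0944% to 0.584% of a library.

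The eosinophil genes moved together from mouse to mouse. Prg2 and Ear2 had a Pearson r of 0.988 over the 11 mice (permutation p = 1e-05, the smallest possible, adjusted 0.000225 over the 45 pairs of members) and a Spearman rho of 1 (p = 1e-05). The r was 0.968 without Control 2 and BMAd-DTA 6, and 0.987 within the 7 BMAd-DTA mice. Prg2 and Epx had an r of 0.965 (permutation p = 2e-05, adjusted 0.0003) and a rho of 0.964 (p = 1e-05), with an r of 0.908 without the same 2 mice. The CPM ratio of Ear2 to Prg2 ranged from 0.190 to 0.233, a 1.23-fold span, and that of Epx to Prg2 from 0.430 to 0.721, a 1.68-fold span, over mice whose Prg2 spanned 5.59-fold.

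Il5ra followed less closely, with an r of 0.807 to Prg2 (permutation p = 0.00206, adjusted 0.0185) and a rho of 0.827 (p = 0.00285). That r was 0.611 without Control 2 and BMAd-DTA 6, and 0.515 within the BMAd-DTA mice. Il5ra held 37 to 132 counts per library, against 9077 to 50873 for Prg2. The part of counting error in the lower r was not tested.

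Basophil and mast cell genes varied together less than the eosinophil genes. The mast cell gene Tpsb2 had r from -0.32 to -0.04 with Mcpt8, Cpa3, Ms4a2 and Fcer1a, and Cma1 had r from 0.02 to 0.36 with these 4. The 6 pairs among Mcpt8, Cpa3, Ms4a2 and Fcer1a had r from 0.27 (Ms4a2 with Fcer1a) to 0.79, against 0.77 to 0.99 for the 6 pairs of eosinophil genes. The strongest was Cpa3 with Ms4a2, at an r of 0.787 (permutation p = 0.00377, adjusted 0.0283) and a rho of 0.755 (p = 0.00954, adjusted 0.0613). Its r was 0.856 within the BMAd-DTA mice and dropped to 0.553 without 2 mice. Mcpt8 with Cpa3 had an r of 0.718 (permutation p = 0.0147, adjusted 0.0827) and a rho of 0.491 (p = 0.13). That r was 0.831 within the BMAd-DTA mice, 0.466 without BMAd-DTA 3 and Control 3 and -0.0094 in the 7 libraries rich in muscle transcripts. The relation thus depends on few mice.

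The eosinophil and basophil patterns were not the same. Prg2 and Mcpt8 had an r of -0.079 (permutation p = 0.815) and a rho of -0.309 (p = 0.355). Over the 16 pairs of an eosinophil gene with one of Mcpt8, Cpa3, Ms4a2 and Fcer1a, r ranged from -0.19 to 0.47 with a median of 0.20. In part of the mice some pairs were closer. Prg2 with Fcer1a had an r of 0.732 within BMAd-DTA, and Prg2 with Cpa3 one of 0.674 in the muscle-rich libraries. Prg2 with Mcpt8 stayed at -0.076 and -0.138 in these 2 subsets. BMAd-DTA 6, with the most Prg2, had 27.7 CPM of Mcpt8, the median of its group, and BMAd-DTA 3, with the most Mcpt8, had 1386 CPM of Prg2.

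**Figure D3:**
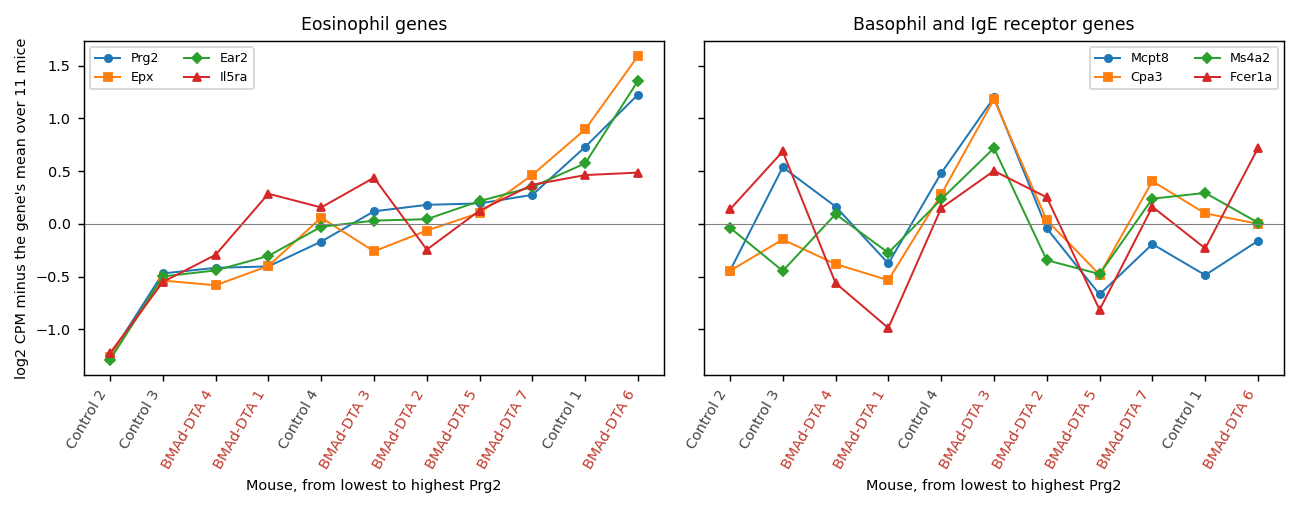
Each gene's log2 CPM minus its mean over the 11 mice, with mice ordered from lowest to highest Prg2 in both panels (Control names in grey, BMAd-DTA names in red). The 4 eosinophil genes (left) climb together from Control 2 to BMAd-DTA 6, while Mcpt8, Cpa3, Ms4a2 and Fcer1a (right) do not follow that order and 3 of them peak in BMAd-DTA 3.

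The genes whose log2 CPM over the 11 mice was most like that of Prg2, among 12965 genes compared, were Ear1 (r = 0.989), Prg3 (0.987), Ear6 (0.973), Gm8113 (0.954) and Stx3 (0.946). The first 3 were on the list of other eosinophil genes, and 10 genes in all had an r over 0.9 with Prg2. For Mcpt8 they were Cwc27 (0.905), Prss34 (0.883), Fbp1 (0.878), Hgh1 (0.873) and Gm20300 (0.859), of which Prss34 was on the list of other basophil genes. For Cma1 they were Usf2 (0.942), 2210016F16Rik (0.886), Thap11 (0.848), Pcsk4 (0.846) and Gm13375 (0.839), none of them on a mast cell list, and with 4 to 14 counts per library these likenesses carry counting error. These r are descriptions, since each is the highest of all genes compared.

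The libraries also differed in skeletal muscle transcripts. A skeletal muscle score, the mean log2 CPM of 12 muscle genes, was 3.34 to 5.68 in 7 libraries (Control 1 to 3 and BMAd-DTA 1, 4, 6 and 7) and 0.12 to 0.40 in 4 (Control 4 and BMAd-DTA 2, 3 and 5). Tpsb2 was 0.656 to 1.3 CPM in the 7 muscle-rich libraries and 0.172 to 0.459 CPM in the 4 muscle-poor ones, without overlap, as in 0.879% of all tested genes. It was the only 1 of the 10 members of which this was true. With the muscle score as a covariate the log2 fold change of Tpsb2 was -0.17, and within the muscle-rich libraries -0.40. The closest libraries of both kinds held 8 and 12 counts of Tpsb2, and the part of muscle tissue in this difference was not tested.

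**Figure D4:**
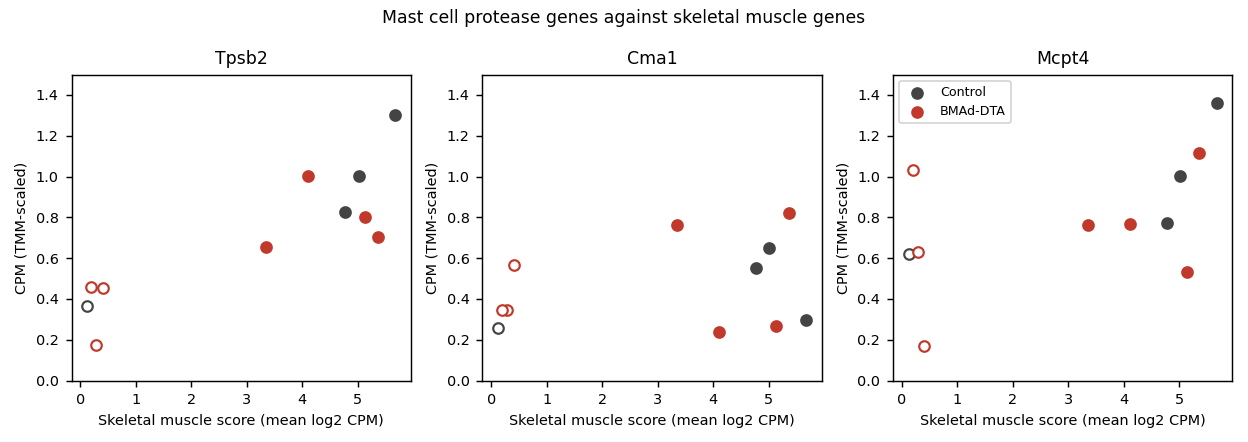
CPM of Tpsb2, Cma1 and the mast cell chymase gene Mcpt4 in each library (vertical axes) against its skeletal muscle score (mean log2 CPM, horizontal axes), for Control (grey) and BMAd-DTA (red), with open circles for the 4 muscle-poor libraries. Tpsb2 is at most 0.459 CPM in the muscle-poor and at least 0.656 CPM in the muscle-rich libraries, while Cma1 and Mcpt4 overlap between them.

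Cma1, at 0.236 to 0.822 CPM in the muscle-rich and 0.259 to 0.567 in the muscle-poor libraries, showed no such split, and neither did the eosinophil genes. Prg2 was 535 to 2986 CPM in the muscle-rich libraries and 1136 to 1460 in the muscle-poor ones, so that both its lowest and its highest mouse were muscle-rich. Marker lists of other tissues also had log2 fold changes to 1 side of 0, mostly without passing the adjusted edgeR test. All 12 muscle genes were lower in BMAd-DTA (median log2 fold change -0.93, none past edgeR or DESeq2). All 10 bone genes were higher (median 1.06), and all 10 had an unadjusted edgeR p under 0.05 (16.4% of all genes). Of the 10, 1 passed the adjusted edgeR test and 8 that of DESeq2 (5.42% of all genes). Of the adipocyte genes 8 of 8 were lower (median -1.29), 5 at an unadjusted edgeR p under 0.05, 1 past edgeR and 2 past DESeq2. Their summed levels were 602 to 1301 CPM in Control and 212 to 827 in BMAd-DTA. The part of these shifts in the levels of the 10 genes was not tested.

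Of 9 other eosinophil genes 7 were higher and 2 lower in BMAd-DTA (median log2 fold change 0.24), and none passed the edgeR or DESeq2 test. The extremes were Alox15, a lipoxygenase of eosinophils, at 0.63 (edgeR adjusted p = 0.435) and Csf2rb, the common beta chain of cytokine receptors, at -0.15 (edgeR adjusted p = 0.487). Alox15 was 188, 55.1, 75.0 and 146 CPM in Control 1 to 4, and 110 to 386 CPM with a median of 146 in BMAd-DTA. Like Prg2 it was lowest in Control 2 and highest in BMAd-DTA 6. Not all genes of this list followed Prg2. Csf2rb was 237 CPM in Control 2 and 224 CPM in BMAd-DTA 6. Ccr3, named after its values were seen, was 32.7 and 34.3 CPM in the same 2 mice.

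Of 7 other basophil genes tested, 2 were higher and 5 lower (median -0.07), and none passed either test. They ranged from Il4, the cytokine interleukin 4, at 0.90 (edgeR adjusted p = 0.339) to Gzmb, a granzyme, at -0.40 (edgeR adjusted p = 0.577). Il4 was 0.606, 0.766, 0.414 and 0.778 CPM in Control 1 to 4, and 0.586 to 2.61 CPM with a median of 0.860 in BMAd-DTA. Its highest mouse was BMAd-DTA 3, which also had the most Mcpt8.

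Of 14 other mast cell genes listed, 7 were tested, all 7 with a log2 fold change below 0 (median -0.09) and none past either test. Genes left out by the filter, named after their values were seen, did not all go that way. Rgs13 was higher (DESeq2 log2 fold change 1.22), and Mcpt2 (-3.19) and Tpsab1 (-0.40) were lower. They rest on 66, 19 and 14 counts over all libraries. The 7 tested genes ranged from Srgn, the proteoglycan core of granules, at -0.02 to Mcpt4 at -0.38 (edgeR adjusted p = 0.693). Their levels were far apart, with 281 to 439 CPM of Srgn and 0.622 to 1.36 CPM of Mcpt4 in Control. The part of mast cells in the levels of this list was not tested. The 11 IgE receptor signalling genes had a median of 0.04, from Lat2, a membrane adaptor, at 0.34 (edgeR adjusted p = 0.220) to the kinase Lyn at -0.08. Of these 11, 2 had an unadjusted edgeR p under 0.05, a share near the 16.4% of all genes. They were Lat2 and, named after its values were seen, the kinase Fyn, at 0.21 (edgeR adjusted p = 0.134).

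Of 10 ligands and chemokines that act on these cells, 6 were tested and none passed edgeR's adjusted test. Ccl24, eotaxin 2, which draws eosinophils, was 1.21, 0.530, 0.709 and 0.622 CPM in Control 1 to 4, and 0.860 to 6.94 CPM with a median of 1.66 in BMAd-DTA. In 5 BMAd-DTA mice Ccl24 exceeded all controls, and the other 2 lay within the control range. Ccl24 had a log2 fold change of 1.68 ± 0.57 (SE, edgeR adjusted p = 0.160), 1.17 without BMAd-DTA 4 and 2.06 within the muscle-rich libraries, and DESeq2 gave it an adjusted p of 0.0313. Its levels rest on 367 counts over all libraries.

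Ccl11, eotaxin 1, went the other way, with 2.81, 3.59, 6.44 and 1.04 CPM in Control 1 to 4, and 0.401 to 2.76 CPM with a median of 2.29 in BMAd-DTA. Its log2 fold change of -0.92 did not pass (edgeR adjusted p = 0.354). It was -0.43 without Control 3, the mouse with the highest muscle score. With the muscle score as a covariate it was -0.47, and within the muscle-rich libraries -0.95. The part of muscle tissue in this difference was not tested. The 2 eotaxins lay at opposite ends of the list.

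Of 11 lineage transcription factors 4 were higher and 7 lower (median -0.10), from Xbp1, which eosinophil precursors need, at 0.12 to Zfpm1, a partner of GATA factors also known as Fog1, at -0.49. In edgeR none of the 11 passed, and 4 of the 11, all lower, had an unadjusted p under 0.05, beside 16.4% of all genes. Zfpm1 was 459, 372, 328 and 278 CPM in Control 1 to 4, and 213 to 321 CPM with a median of 251 in BMAd-DTA (edgeR adjusted p = 0.0985, DESeq2 adjusted p = 0.0124). Gata1, the GATA factor of eosinophil, mast, erythroid and megakaryocyte development, was 197, 139, 117 and 110 CPM in Control 1 to 4, and 83.6 to 123 CPM with a median of 98.2 in BMAd-DTA. Its log2 fold change was -0.46 ± 0.15 (SE, edgeR adjusted p = 0.144, DESeq2 adjusted p = 0.0446), and -0.26 without Control 1.

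The red cell lineage uses both factors as well. All 8 tested erythroid markers had a log2 fold change below 0 (median -0.35). Of these 8, 4 had an unadjusted edgeR p under 0.05, beside 16.4% of all genes. The adjusted edgeR test was passed by 0 of the 8 and that of DESeq2 by 1. Their summed level was 13370 to 30093 CPM in Control and 17803 to 31423 CPM in BMAd-DTA, so that the groups overlapped. The part of red cell precursors in the values of Gata1 and Zfpm1 was not tested.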

How the data were processed

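RNA of whole distal tibia from 4 Control and 7 BMAd-DTA mice was sequenced as stranded paired-end libraries. The authors checked reads with FastQC 0.11.9, aligned them to mm10 with STAR and deposited raw counts per gene for each library and merged. Their DESeq2 results were not used. The merged counts equal the read-strand counts of the library files, and 99.89% of identifiers were found in GENCODE M21 (GRCm38), which gave positions and transcript lengths.

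Counts were tested with edgeR 4.0.16 in R 4.3.3 (filterByExpr, TMM, glmQLFTest, two-sided). The SE was derived from each gene's log2 fold change and F statistic. DESeq2 1.42.0, limma-voom 3.58.1, other scalings and filters, covariates (the muscle score, or 1 surrogate variable from sva 3.50.0) and leaving out each mouse were alternatives. Correlations used log2 CPM (prior count 2) and 100000 permutations. Single genes were also tested by exact permutation. Steps were tested on simulated data. Named genes are all members, the tested genes at both extremes of log2 fold change in each related list, any called by edgeR or DESeq2, and the 5 most similar genes of Prg2, Mcpt8 and Cma1. Members and lists were chosen with earlier results of these data known.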

Additional observations from a re-analysis of the deposited data

Results flagged for a closer look

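In 5 of 20 sets of values, each 1 member in 1 genotype, 1 mouse stood apart by Dixon's 95% criterion. The gaps were taken on CPM and not on log2 CPM. Chance meets the criterion in about 1 of 20 sets only where values are normally distributed, which was not tested. The 5 of 20 therefore cannot be read against that rate. The sets are not independent, since 3 of the 5 concern the same mouse and correlated genes. BMAd-DTA 6 held 2986 CPM of Prg2, where the next mouse of its group held 1545. In the same mouse Epx was 2153 CPM, with 985.5 in the next, and Ear2 690.7 CPM, with 343.5 in the next. BMAd-DTA 3 held 71.26 CPM of Mcpt8 and 33.14 CPM of Cpa3, where the next mice held 34.75 and 19.29 CPM.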

How the results depend on the processing

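No member passed an adjusted p of 0.05 in any of the 21 alternatives that gave it a value. Without Control 1, 3 members that varied together had an unadjusted edgeR p under 0.05, as did 1784 of all genes. None of the members had groups without overlap in those alternatives where overlap was counted. The count over all genes, 13 in edgeR, was 845 in DESeq2, 20 in limma-voom, 20 with RLE size factors, 3 with the muscle score and 2 with 1 surrogate variable as a covariate. It was 103 in the 7 muscle-rich libraries alone, an alternative chosen after seeing the data, and 0 to 292 with 1 mouse left out. It was 0 without Control 1, Control 2, BMAd-DTA 1 or BMAd-DTA 6 (1784, 2239, 2626 and 2528 at an unadjusted p under 0.05), 292 without Control 3, 89 without Control 4, 3 without BMAd-DTA 4 and 8 without BMAd-DTA 3. The cause was not tested.

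Signs changed for Mcpt8, Ms4a2, Cpa3 and Epx. Mcpt8 was -0.0343 in limma-voom, -0.0121 with library size alone, -0.1233 with the muscle score, -0.1229 with the surrogate variable, -0.0802 in the muscle-rich libraries and -0.2929 to 0.1916 with 1 mouse left out. Ms4a2 was -0.0215, -0.0072, -0.0178 and -0.0278 under the first 4 of these and -0.1435 to 0.1039 with 1 mouse left out. Leaving out 1 mouse moved Cpa3 between -0.0921 and 0.3035 and Epx between -0.0837 and 0.7938. Cma1, where it passed the filter, was 0.26 without Control 1 and -0.06 without Control 4. The median over the members was -0.0921 without BMAd-DTA 3. Prg2, Il5ra, Ear2, Fcer1a and Tpsb2 kept their direction in all alternatives that gave a value. A filter at a mean of 50 counts left out Tpsb2. Tpsb2 and Cma1 have the fewest counts of the members, 3 to 22 and 4 to 14 per library, and so the largest relative counting error. No paired analysis was possible because the labels give mouse identifiers and no replicate numbers shared between genotypes.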
